A study of Mus musculus with 4 samples.

Results

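Microglia are the resident macrophages of the brain, and 9 genes that mark them and other macrophages were followed here in cultures of embryonic mouse cortical neurons. The genes were taken by symbol from a fixed list of Laptm5, Aif1, Ctss, Cd68, C1qa, C1qb, Csf1r, Tyrobp and Trem2, and all 9 were among the 32681 genes of the deposited table. Primary neuronal cells from the neocortex of wild-type CD-1 mice at embryonic day 13 had been transfected either with Control shRNA (2 libraries) or with DcpS shRNA (2 libraries), an RNA hairpin against the decapping scavenger enzyme DcpS. All cultures were kept in Neurobasal medium with B27 supplement. The share of cells that took up the hairpin, the days in culture and whether the cultures came from separate litters are not stated in the labels, and the p-values therefore rest on the spread of these samples alone, some or all of which may be technical.

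Microglia do not arise from the neural lineage. They come from yolk sac progenitors that enter the embryonic brain, and they depend on signals through the receptor CSF1R for survival. A neuron culture from embryonic cortex can therefore carry some of them over from the dissected tissue. Their marker genes serve as a readout of how much immune cell RNA such a culture holds. In bulk RNA, fewer cells of a type and less RNA per cell cannot be told apart.

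The libraries held 17754768 to 21793685 reads. Where no read was found, up to 3 may have been missed, or 2.73 to 3.35 on the deposited scale of normalised read counts (reads divided by a size factor per library); this limit and the Poisson intervals below cover counting error only. Dcps itself was at 499.8 and 506.6 in the controls and at 114 and 120 with DcpS shRNA (limma, log2 fold change −2.10, SE 0.11, Benjamini-Hochberg adjusted p 1.52e-08). The neuronal label was borne out by the neuron genes, of which Tubb3 ranged from 19013 to 19935 normalised reads over the 4 libraries.

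Of the 9 microglia and macrophage genes, 8 had reads at low levels in every library and Trem2 had none in DcpS shRNA 1, and their total was nearly the same with and without DcpS shRNA. Their raw reads came to 313 for control 1, 298 for control 2, 354 for DcpS shRNA 1 and 292 for DcpS shRNA 2. On the normalised scale the sum was 297 and 306 for control libraries against 322 and 326 for DcpS shRNA, which is 302 ± 5.80 and 324 ± 3.31 (SD, n = 2 per group) and a ratio of 1.07. The groups did not overlap, and their order turned when Laptm5 was left out. Without Laptm5 the sum was 250 and 244 for control libraries against 224 and 242 for DcpS shRNA, a ratio of 0.945. The geometric mean over the 9 genes gave a ratio of 0.995.

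**Figure D1:**
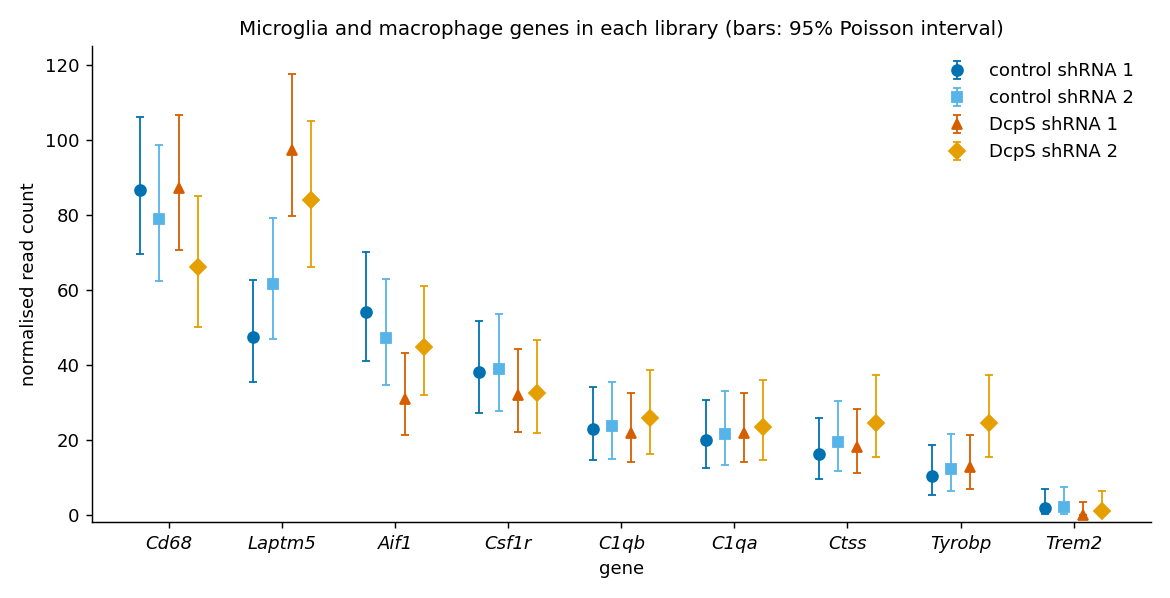
Normalised read count (vertical axis) of each of the 9 genes (horizontal axis) in the 2 control shRNA and 2 DcpS shRNA libraries, 1 point per library, with the 95% Poisson interval of its reads as bar. Laptm5 is higher in both DcpS shRNA libraries, although its bars for control 2 and DcpS shRNA 2 overlap. Trem2 lies at 0 to 2.05 in all 4, and for the other genes bars of both groups overlap.

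Compared per exon length, in reads per kilobase of exon scaled to library size (RPKM), Cd68 stood highest and Trem2 lowest. Cd68 averaged 3.20 ± 0.398 RPKM (SD, n = 4 libraries), and its lowest library was above the highest library of any other member. Aif1 followed at 1.46 ± 0.321, Tyrobp at 1.14 ± 0.487, C1qb at 1.09 ± 0.0759, C1qa at 1.05 ± 0.0695, Laptm5 at 0.966 ± 0.296 and Ctss at 0.728 ± 0.133. From Aif1 down to Ctss each gene overlapped its next neighbour in the order over the 4 libraries, although Aif1, C1qb and C1qa lay above Ctss in every library. Csf1r, at 0.308 ± 0.0325, was below all of them, and Trem2, at 0.0129 ± 0.00958, below Csf1r.

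The median of the 9 genes was 1.05 RPKM, against 4.95 RPKM over the 17705 tested genes with a single gene model. Cd68 was above 40.2% of those genes and Csf1r above 7.57%. Neuron genes had a median of 45.5 RPKM and radial glia and astrocyte genes 16.1 RPKM, while meningeal fibroblast genes had 3.05 RPKM. The 33 other microglia and macrophage genes had a median of 0.209 RPKM, and the border macrophage list 0.0801 RPKM.

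**Figure D2:**
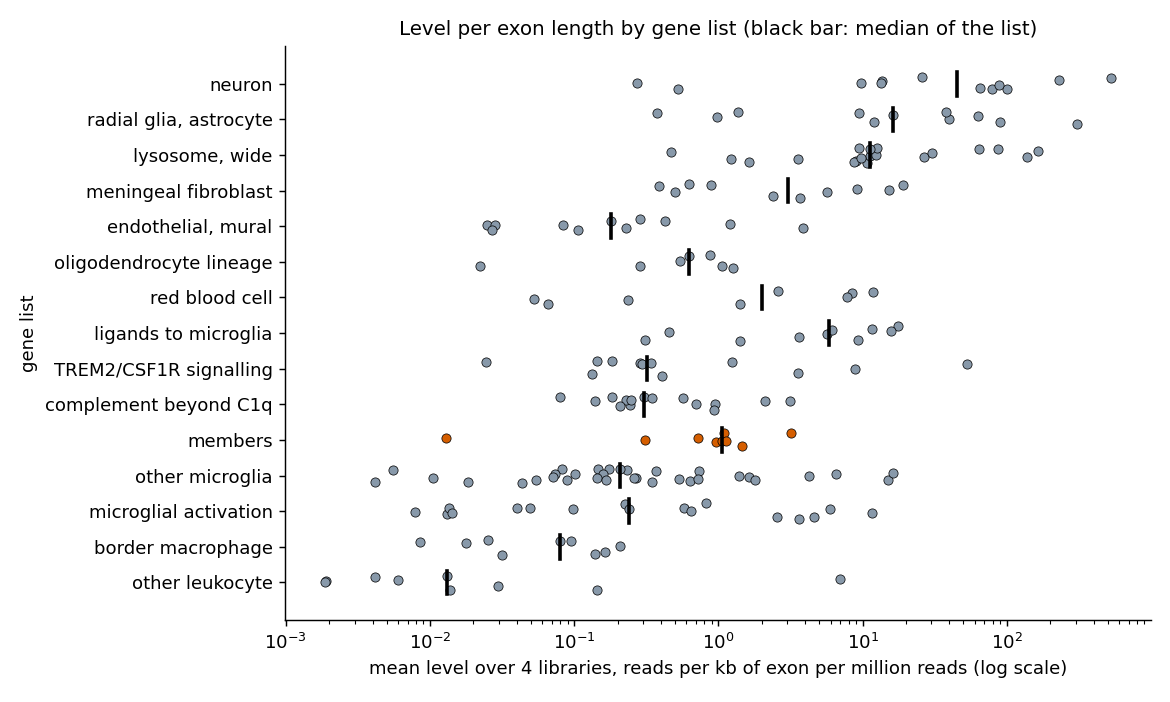
Mean level over the 4 libraries in RPKM (horizontal axis, log scale) of the genes of 15 lists (vertical axis), 1 point per gene, with the list's median as a black bar. The 9 members, in orange, have a median of 1.05, below the 45.5 of neuron genes and the 16.1 of radial glia and astrocyte genes.

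Many myeloid genes are driven by the transcription factor PU.1, the product of Spi1, which binds purine-rich DNA with a GGAA core. Spi1 itself was at 5.70 and 10.3 in the controls and at 19.1 and 20.1 with DcpS shRNA, from 6, 10, 21 and 18 reads. Its groups did not overlap, as for 24.4% of all tested genes in the higher direction. It did not pass the test (limma, Benjamini-Hochberg adjusted p 0.0955). To show the start-site DNA of the measured genes, the word GAGGAA was searched on both strands from 250 bases before to 50 bases after the annotated start (RefSeq, GRCm38.p6). All 6 members with a promoter entry held it, as did 28.3% of all 32851 promoters of that length. The longer word GAGGAAGT was in 1 of the 6, Ctss, and in 3.20% of all promoters; every match of the longer word is also one of the shorter. C1qa, Csf1r and Tyrobp had no entry. In the windows below, written 5′ to 3′ on the strand of the gene, capitals mark the word, which reads TTCCTC where it lies on the opposite strand. They are shown for the match nearest the start of each gene.
Laptm5, chr4:130913266-130913295, plus strand: gcagcctgtggcTTCCTCttttttgttctg
Ctss, chr3:95526774-95526803, plus strand: atgaaagttcacTTCCTCattgtggatgct
C1qb, chr4:136886213-136886242, minus strand: gcagcaggatggGAGGAAcagaggggtgat
Cd68, chr11:69666124-69666153, minus strand: gaggcttttcatTTCCTCttccaagagaag
Aif1, chr17:35176042-35176071, minus strand: ataggcacccagTTCCTCcatcctattgtt
Trem2, chr17:48346349-48346378, plus strand: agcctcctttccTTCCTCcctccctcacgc
In the Ctss window the bases ac just before the capitals complete the longer form on the opposite strand. A match describes these letters only. The genes shown include both Cd68, the highest member per exon length, and Trem2, the lowest.

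Of the 9 genes, 8 passed the filter on low reads, each with at least 11 reads in every library, and Trem2 did not. Over these 8, 1 gene was higher with DcpS shRNA and none was lower (limma on log2(normalised read count + 1), Benjamini-Hochberg adjusted p under 0.05 over 18110 genes). Among all tested genes 5.79% were called, 2.14% higher and 3.65% lower. Only Laptm5 had an unadjusted p under 0.05 in limma. edgeR called 1 member, higher, where it called 5.95% of all tested genes (2.10% higher, 3.85% lower). DESeq2 called 0 members, with 1 at an unadjusted p under 0.05, where it called 2.47% (0.756% higher, 1.72% lower). It gave no adjusted p to Ctss, C1qa, C1qb and Tyrobp, so it could not call them. Genes without an adjusted p count as not called in the DESeq2 shares. The median log2 fold change of the 8 was 0.07, against 0.00 over all tested genes, with 5 values above 0 and 3 below. Groups did not overlap for 3 genes in the higher direction and for 2 in the lower, where 24.4% and 24.0% of all tested genes showed this (48.4% in either direction).

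Laptm5 encodes a lysosomal membrane protein of blood-derived cells that promotes the breakdown of immune receptors. It lies on chromosome 4, 130913125 to 130936141, plus strand (GRCm38, GENCODE M21). Control libraries held 47.5 and 61.5 normalised reads and DcpS shRNA libraries 97.2 and 83.8, from 50, 60, 107 and 75 reads. Both DcpS shRNA libraries were above both controls, although the Poisson interval of control 2 (47.0 to 79.2) overlapped that of DcpS shRNA 2 (65.9 to 105). The mean rose from 54.5 ± 9.92 to 90.5 ± 9.48 (SD, n = 2 per group), a log2 fold change of 0.73 (SE 0.19, limma, Benjamini-Hochberg adjusted p 0.0344). The call ended without control 1 (adjusted p 0.191, limma), without DcpS shRNA 1 (0.101) and with DESeq2 (0.274), while the fold change stayed between 0.55 and 0.91 on the log2 scale over every library left out.

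The related transporter-like genes Laptm4a and Laptm4b, which most cells express, did not show such a difference. Laptm4a was at 4770 and 4672 in the controls and at 4871 and 5125 with DcpS shRNA (log2 fold change 0.08, SE 0.05). Laptm4b was at 433 and 476 in the controls and at 384 and 426 with DcpS shRNA (−0.17, SE 0.09). Neither passed the test (limma, Benjamini-Hochberg adjusted p 0.432 and 0.345).

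Cd68, a heavily glycosylated protein of lysosomes and the usual stain for phagocytic macrophages, lies on chromosome 11, 69664213 to 69666153, minus strand. Control libraries held 86.5 and 79.0 normalised reads and DcpS shRNA libraries 87.2 and 65.9. The groups overlapped, with the highest and the lowest library both in the DcpS shRNA group. Its log2 fold change was −0.12, with a 95% interval from −0.51 to 0.27. Ctss, a lysosomal cysteine protease that trims the chain guarding MHC class II molecules, was at 16.2 and 19.5 in the controls and at 18.2 and 24.6 with DcpS shRNA. It lies on chromosome 3, 95526786 to 95556403, plus strand. Its groups overlapped too, and its interval ran from −0.45 to 0.93.

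Csf1r encodes the receptor for the growth factors CSF1 and IL-34 and lies on chromosome 18, 61100598 to 61132149, plus strand. It was at 38.0 and 39.0 in the controls and at 31.8 and 32.4 with DcpS shRNA. Both DcpS shRNA libraries were lower, by less than the counting error of single libraries. The log2 fold change of −0.25 (SE 0.24, 95% interval −0.76 to 0.25) did not pass the test (limma, Benjamini-Hochberg adjusted p 0.634). Of its exon bases, 873 (15.1%) also belong to exons of Hmgxb3 on the opposite strand, a gene with 749 to 989 reads per library. The use of strand in the counting is not given, so reads of the shared stretch cannot be told apart.

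Trem2, a lipid-sensing receptor of microglia, was near the limit of these libraries, while Tyrobp, the adaptor that carries its signal, had 11 to 22 reads. Trem2, on chromosome 17, 48346401 to 48354147, plus strand, had 2 reads in each control and 0 and 1 read with DcpS shRNA. Both groups were under the floor of 3 reads, so no fold change is given. Tyrobp, on chromosome 7, 30413760 to 30417585, plus strand, was at 10.5 and 12.3 in the controls and at 12.7 and 24.6 with DcpS shRNA. Its value of 24.6 in DcpS shRNA 2 was the highest, but its Poisson interval (15.4 to 37.2) overlapped those of the other 3 libraries. The log2 fold change was 0.60 (SE 0.40, 95% interval −0.24 to 1.45) and did not pass the test (limma, Benjamini-Hochberg adjusted p 0.463).

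C1qa and C1qb encode chains A and B of C1q, the molecule that starts the classical complement cascade and which microglia make in the brain. The genes are neighbours on chromosome 4, at 136895917 to 136898803 and 136880129 to 136886187, both on the minus strand. C1qa was at 20.0 and 21.5 in the controls and at 21.8 and 23.5 with DcpS shRNA. C1qb was at 22.8 and 23.6 in the controls and at 21.8 and 25.7 with DcpS shRNA. Both genes were almost level over the 4 libraries, from 21 to 24 reads each. The log2 fold changes were 0.12 (95% interval −0.52 to 0.76) for C1qa and 0.03 (−0.59 to 0.65) for C1qb. The remaining chain, C1qc, was at 20.9 and 23.6 in the controls and at 15.4 and 22.3 with DcpS shRNA, and the sum of the 3 chains was 63.7 and 68.7 against 59.1 and 71.5.

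Aif1, the actin-bundling protein known as Iba1 and the common stain for microglia, had the lowest log2 fold change of the tested members and did not pass the test. It lies on chromosome 17, 35170991 to 35176068, minus strand. Control libraries held 54.2 and 47.2 normalised reads and DcpS shRNA libraries 30.9 and 44.7. The groups did not overlap, although control 2 and DcpS shRNA 2 were close. The log2 fold change was −0.43 (SE 0.24, 95% interval −0.94 to 0.07, limma, Benjamini-Hochberg adjusted p 0.357). Aif1 and Laptm5 thus differed in opposite directions in value, and DcpS shRNA 1 held both the highest Laptm5 and the lowest Aif1.

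**Figure D3:**
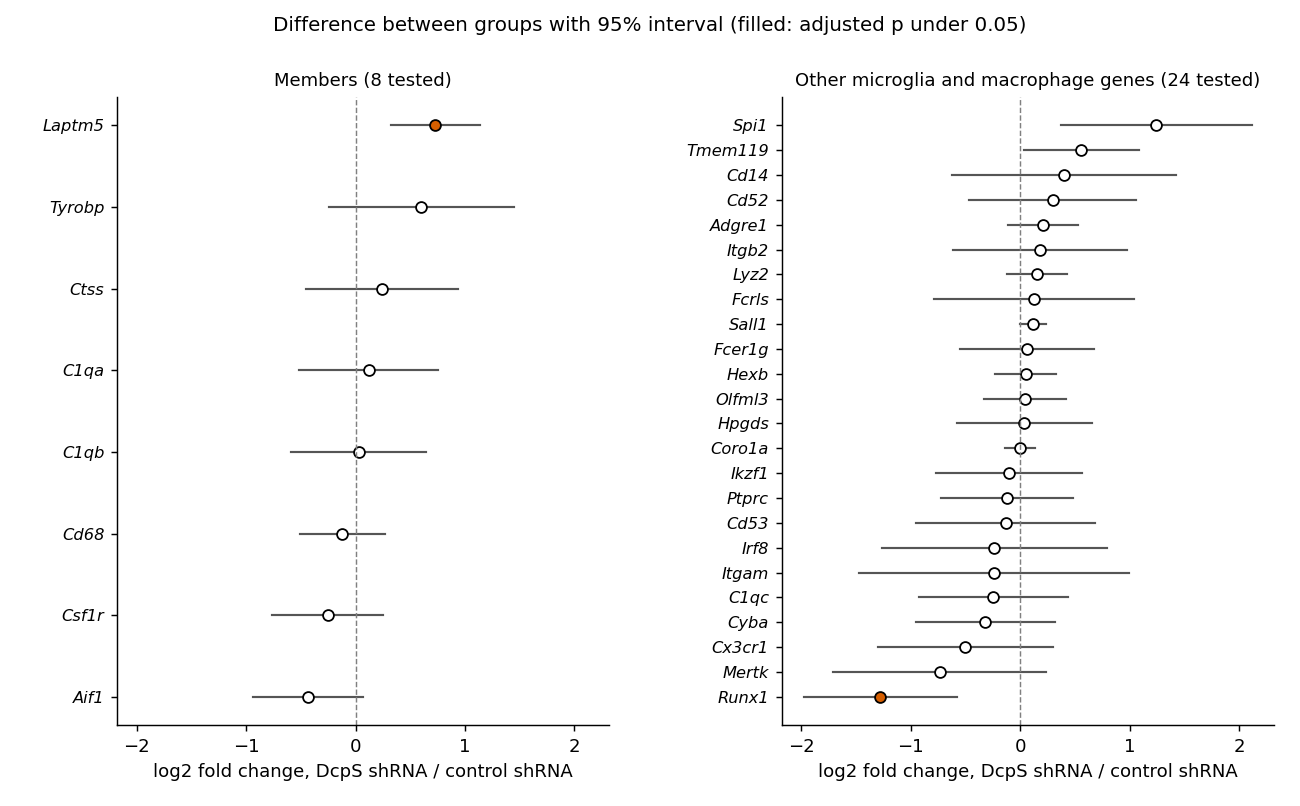
Log2 fold change of DcpS shRNA over control shRNA (horizontal axis) with its 95% interval for the 8 tested members (left) and 24 tested genes of the wider microglia and macrophage list (right). Filled points have an adjusted p under 0.05: Laptm5 at 0.73 among the members and Runx1 at −1.28 in the wider list.

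The intervals show what size of change these reads could reveal. Among the 3910 tested genes with a mean normalised read count between 15 and 79.6, the range of the 8 tested members, 83 were called (2.12%), and the smallest called log2 change was 0.66. For the 7 members that were not called, the lower bounds ran from −0.94 to −0.24 and the upper bounds from 0.07 to 1.45 on the log2 scale. A fold of 2 in either direction lay outside the interval for 6 of these 7, the exception being Tyrobp.

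The libraries did not differ as a block of high or low marker genes. DcpS shRNA 2 had the highest value for 4 of the 9 genes, control 2 and DcpS shRNA 1 for 2 each and control 1 for 1. The lowest value fell in control 1 for 4 genes, in DcpS shRNA 1 for 4, in DcpS shRNA 2 for 1 and in control 2 for 0. The tested genes most like Laptm5 over the 4 libraries were Erbb3, Gm10752, Fndc9, Gm10433 and Medag, with a root mean square difference of centred log2 values of 0.0175 to 0.0636, and 19 genes lay within 0.1. Those most like the mean of the tested members were Snhg1, Inha, 0610009B22Rik, Fam161a and Ugp2, where 4855 genes lay within 0.1. That mean averages members that differed in opposite directions, such as Laptm5 and Aif1, so its nearness to many genes describes no single member.

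The wider list of 33 microglia and macrophage genes had a median log2 fold change of 0.04 over its 24 tested genes. Of these, 0 were higher and 1 was lower, where 2.14% and 3.65% of all tested genes were. An unadjusted p under 0.05 in limma was found for 4 of the 24, and for 3380 of all 18110 tested genes. The lower gene was Runx1, a transcription factor of blood and microglial progenitors that some neurons also use, at 25.7 and 35.9 in the controls and at 12.7 and 11.2 with DcpS shRNA. Its log2 fold change was −1.28 (SE 0.33, limma, Benjamini-Hochberg adjusted p 0.0298), a call that ended without control 2 (0.333). Some defining genes of mature microglia were near 0, while others, such as Cx3cr1 and Tmem119 (both below), were not. P2ry12 had 1 and 0 control reads against 3 and 0 for DcpS shRNA. P2ry13 and Siglech had 1 read each in DcpS shRNA 2 and none elsewhere. Cx3cr1, the fractalkine receptor, was at 14.3 and 19.5 in the controls and at 11.8 and 11.2 with DcpS shRNA, and did not pass (limma, Benjamini-Hochberg adjusted p 0.528).

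The highest levels of that list were in Coro1a, an actin regulator, Sall1, a transcription factor, and Lyz2, the lysozyme of myeloid cells, at 16.2, 15.1 and 6.56 RPKM. Coro1a and Sall1 are not restricted to microglia in the developing cortex. Lyz2, like both of these genes, was more abundant per exon length than any of the 9 members, of which Cd68 was highest at 3.20 RPKM. Spi1 and Tmem119 were picked after their values were seen. Spi1, described above, had a log2 fold change of 1.25 (SE 0.41) and did not pass the test (limma, Benjamini-Hochberg adjusted p 0.0955), and it passed with the replicate numbers as a block in limma (0.0388) but not in edgeR (0.0575). Tmem119, a membrane protein of microglia that bone-forming cells also make, was at 28.5 and 25.6 in the controls and at 42.7 and 38.0 with DcpS shRNA (0.56, adjusted p 0.238).

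Border macrophages line the meninges and vessels, and their genes had few reads, with 3 of the 9 in the table at no more than 3 reads in every library. Of 10 listed, 9 had a row in the table and 4 were tested, and 0 were called, with 0 at an unadjusted p under 0.05 and 0 by edgeR or DESeq2. The highest per exon length was Clec10a, a lectin, at 0.206 RPKM, followed by the scavenger receptor Stab1 at 0.163 and the membrane protein Ms4a7 at 0.139. The mannose receptor gene Mrc1 had 3 reads in each control and 5 and 2 for DcpS shRNA. Other leukocyte genes, covering T, B and myeloid cells, had 9 of 17 symbols in the table. Kit, Cd79a and Cd4 were the highest, at 6.93, 0.143 and 0.0298 RPKM. Only Kit, which cortical neurons also express, was tested there, and it was not called by limma, edgeR or DESeq2 (unadjusted p 0.221 in limma).

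Genes for signals that act on microglia included some that were called. Of 10 such genes, all tested, 4 were lower and 1 was higher, with a median log2 fold change of −0.17. Among all tested genes, 3.65% were called lower and 2.14% higher. edgeR called 5 of the 10 (5.95% of all tested genes) and DESeq2 called 1 (2.47%). Il34 received no adjusted p from DESeq2. Which cells made this RNA was not tested. CSF1R has 2 ligands: Il34 was at 24.7 and 25.6 in the controls and at 9.99 and 10.1 with DcpS shRNA, and Csf1 was at 410 and 411 in the controls and at 348 and 361 with DcpS shRNA. Il34 fell by 1.25 on the log2 scale (SE 0.35, limma, Benjamini-Hochberg adjusted p 0.0437). With 9 to 26 reads per library its call ended when any of the 4 libraries was left out (adjusted p 0.0568 to 0.255). Csf1 did not pass (−0.21, adjusted p 0.197). Per exon length the list was led by Cd200, the lipoprotein Clu and Apoe, at 17.7, 15.8 and 11.7 RPKM.

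The transforming growth factor Tgfb1, which maintains microglial identity, was at 39.9 and 44.1 in the controls and at 20.0 and 20.1 with DcpS shRNA, a fall of 1.03 on the log2 scale (limma, Benjamini-Hochberg adjusted p 0.0280). Its relative Tgfb3 fell by 0.81, from 120 and 124 to 66.3 and 71.5 (limma, Benjamini-Hochberg adjusted p 0.00518). The calls ended for Tgfb1 without control 1 (0.0842), without control 2 (0.199) and with DESeq2 (0.305), and for Tgfb3 with DESeq2 (0.0676). Cd200, a surface protein that restrains microglia through their CD200 receptor, was higher, at 1015 and 1061 in the controls and at 1214 and 1368 with DcpS shRNA (0.31, SE 0.07, adjusted p 0.0100). Apoe, a lipid carrier that TREM2 binds, was lower, at 560 and 547 in the controls and at 451 and 422 with DcpS shRNA (−0.34, SE 0.08, adjusted p 0.0174). The call of Apoe ended without control 1 (0.0659) and with DESeq2 (0.151).

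Genes that act downstream of TREM2, TYROBP and CSF1R were tested for 10 of 12 listed, and 1 was lower (3.65% of all tested genes). This was the adaptor Grb2, used by many receptors in all cells, at 3411 and 3414 in the controls and at 2682 and 2771 with DcpS shRNA (−0.32, SE 0.05, limma, Benjamini-Hochberg adjusted p 0.00106). Grb2, the exchange factor Sos1 and the kinase subunit Pik3cd led that list, at 53.1, 8.89 and 3.57 RPKM. The annotated 3′ UTRs of Grb2 hold at least 1 of the 7-base words ACGTGCA and CACGTGC, and so do those of Dcps. Whether it is the same word was not recorded. These words were chosen from earlier results of these data, so their shares among the same data's calls give no independent support. They were in 33.1% of the called lower genes, in 6.25% of the called higher genes and in 7.95% of all tested genes scanned. A part of the words in the lower values was not tested. Among the 9 members only Csf1r holds one.

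Activation genes of microglia gave 2 lower calls among 8 tested of 17 listed, where 3.65% of all tested genes were called lower. The chemokine Ccl2 was at 72.2 and 90.2 in the controls and at 25.4 and 42.5 with DcpS shRNA (−1.27, SE 0.24, limma, Benjamini-Hochberg adjusted p 0.00459), and Apoe was the other. Apoe, the receptor kinase Axl and Spp1 stood highest there, at 11.7, 5.99 and 4.59 RPKM. Spp1, the matrix protein osteopontin, was at 156 and 263 in the controls and at 70.9 and 111 with DcpS shRNA, and did not pass (−1.18, adjusted p 0.0826). It passed when control 1, control 2 or DcpS shRNA 2 was left out, and with the replicate numbers as a block. Of the 17 activation genes, 5 had at most 3 reads in every library (Cst7, Clec7a, Itgax, Il1b and Nos2), while others such as Lpl, with 710 to 779 reads, and Axl, with 552 to 702, were well covered. Cst7 had 1 read in all 4 libraries together, Clec7a had 3 reads in control 1 alone, and Itgax had 1 and 2 reads in the controls and 0 with DcpS shRNA.

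Complement genes other than C1q gave 2 lower calls among 13 tested of 16 listed, where 3.65% of all tested genes were called lower. C3, the central component, was at 81.7 and 123 in the controls and at 38.2 and 41.3 with DcpS shRNA (−1.31, SE 0.21, limma, Benjamini-Hochberg adjusted p 0.00116). The C1 proteases C1ra, C1rb and C1s1, partners of C1q, had values of −0.95, −1.16 and −1.14 on the log2 scale and did not pass (adjusted p 0.156, 0.286 and 0.177); C1s1 passed without DcpS shRNA 1 (0.0300). The most abundant were the inhibitor Serping1, the regulator Cr1l and the component C4a, at 3.13, 2.12 and 0.942 RPKM. The C1q chains, with log2 fold changes from −0.24 to 0.12, were not called in the main test, and neither were these C1 protease partners.

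Lysosomal genes of wide expression were tested for all 19 listed, with 1 higher and 1 lower (2.14% and 3.65% of all tested genes). Ctsb, the cysteine protease cathepsin B, was at 2722 and 2905 in the controls and at 3522 and 3633 with DcpS shRNA (0.35, SE 0.05, limma, Benjamini-Hochberg adjusted p 0.000885). Ctsc, the protease that activates granule enzymes of leukocytes, was at 226 and 277 in the controls and at 126 and 120 with DcpS shRNA (−1.02, SE 0.13, adjusted p 0.000150). The saposin precursor Psap, Laptm4a and the cystatin Cst3 led the list, at 164, 138 and 86.6 RPKM, so lysosomal RNA as a whole was far more abundant than the RNA of Cd68 or Ctss.

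**Figure D4:**
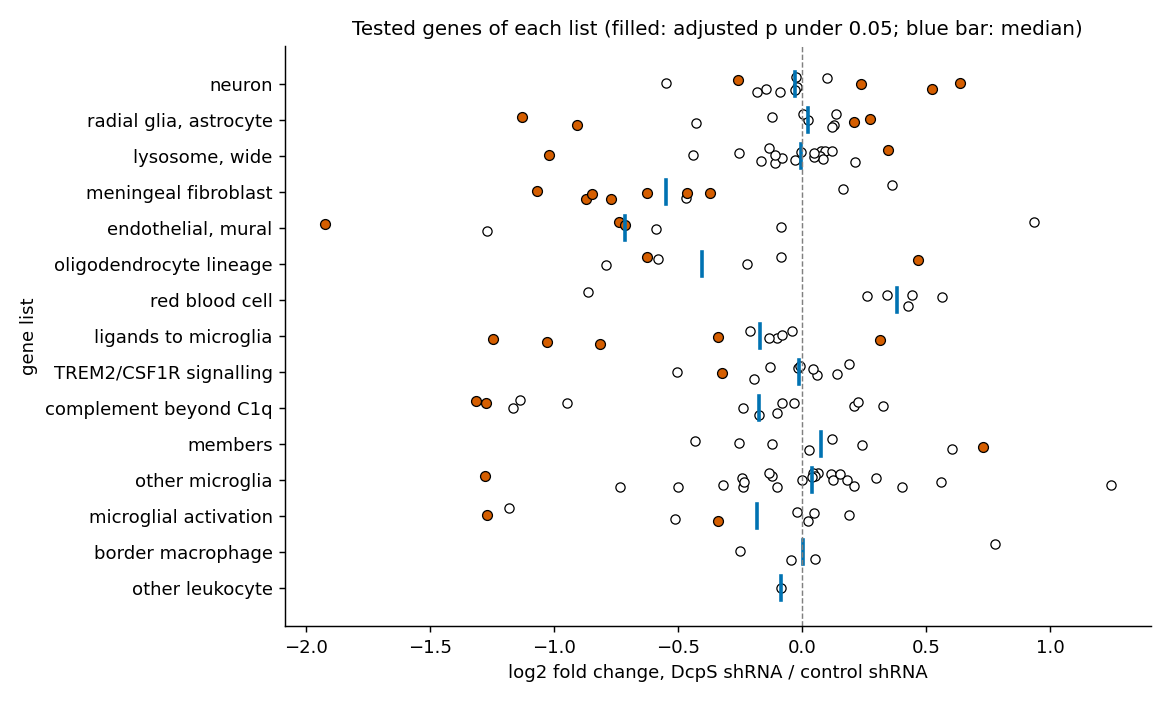
Log2 fold change of DcpS shRNA over control shRNA (horizontal axis) of the tested genes of 15 lists (vertical axis), 1 point per gene, filled where the adjusted p is under 0.05, with the list's median as a blue bar. The medians of the members (0.07) and of the wider microglia list (0.04) lie near 0, and those of the meningeal fibroblast (−0.55) and endothelial and mural (−0.72) lists lie lower.

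Fibroblast and vascular markers, of cells from the surrounding tissue, held several lower calls. Of all tested genes, 3.65% were called lower and 2.14% higher. All 10 meningeal fibroblast genes were tested and 7 were lower, with a summed normalised read count of 11519 and 12643 in the controls and at 7180 and 6890 with DcpS shRNA. Of 11 listed endothelial and mural genes 7 were tested and 3 were lower, with sums over the list of 811 and 872 against 524 and 488. The endothelial gene Cldn5 had at most 2 reads in any library. Red blood cell genes summed to 564 and 276 in the controls and to 411 and 600 with DcpS shRNA, which overlapped, and 0 of 6 tested were called, with 0 at an unadjusted p under 0.05 and 0 by edgeR or DESeq2. The fibroblast calls with the smallest p were Col1a1, Col3a1, Col1a2, Postn, Dcn and Pdgfra, genes of matrix and its makers, with log2 fold changes of −0.87, −0.77, −0.85, −1.07, −0.47 and −0.63, and Col3a1, Col1a1 and Col1a2 were the most abundant (19.2, 15.3 and 9.10 RPKM). The vascular calls were Acta2, Pdgfrb and Kdr, at −1.93, −0.72 and −0.74. Hbb-y, Hba-a1 and Hba-a2 led the red blood cell list (11.9, 8.50 and 7.82 RPKM). Neuron genes gave 3 higher calls (Syp, Slc17a7 and Rbfox3) and 1 lower (Snap25), and the glial list 2 higher (Nes and Aldoc) and 2 lower (Aqp4 and Gfap). The oligodendrocyte lineage list gave 1 higher (Mbp) and 1 lower (Pdgfra). DESeq2 called 4 of the fibroblast, 2 of the vascular, 3 of the neuron, 3 of the glial and 0 of the oligodendrocyte lineage genes. Its share over all tested genes was 2.47%. Leaving out 1 library ended the limma calls of Lum, the remaining fibroblast gene of the 7 (either control or DcpS shRNA 1, adjusted p 0.0973 to 0.106), Kdr, Rbfox3 and Gfap (control 2), Snap25 (control 1), Aldoc (either control) and Mbp (control 1 or DcpS shRNA 2).

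The part of these cells in the lower values of C3, Ccl2, Il34, Tgfb1 and Ctsc was not tested, nor was their part in the higher value of Laptm5.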

How the data were processed

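RNA sequencing of 4 libraries was deposited by the authors as 1 table of genes by library. The submitters' processing notes name GRCm38, HISAT2 2.2.0, SAMtools 1.3.1, Picard, featureCounts and DESeq2, without roles; strand and the handling of reads that fit several genes are not given. The deposited values are a signal, gene counts scaled per library: each was a whole multiple of its column's smallest positive value for 100% of values (tolerance 0.001), and the implied factors equalled median-of-ratios size factors. Reads were recovered by that division. Such scaling would hide a shift of all transcripts together. Libraries of a group differed by more than sampling noise (chi-square per degree of freedom 2.04 and 3.73). The main test was limma 3.58.1 on log2(value + 1), using the trend and robust options of its empirical Bayes step, a single group term, 2 residual degrees of freedom, and Benjamini-Hochberg adjustment over the 18110 genes that passed filterByExpr of edgeR 4.0.16 (minimum count 10). The log scale understates changes of low genes. With 2 libraries against 2, an exact permutation test of 1 gene cannot go below p = 0.333. edgeR and DESeq2 1.42.0 were run on recovered reads. Exon lengths came from GENCODE M21, with 189 of 189 list genes in the table matched. The members, lists and tests were chosen with earlier results of these data known. Named genes were all members, Dcps, each list's called genes but 1 that is not reported here (the 6 with the smallest p where there were more), each list's 3 highest genes per exon length where the list is described by level, defining microglial genes near 0, and the 5 genes most like Laptm5 and the members' mean; ligands, chains, C1 proteases, Laptm4 genes, Spi1, Tmem119, Cx3cr1, Spp1, Mrc1, Cldn5 and activation markers were added after their values were seen.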

Additional observations from a re-analysis of the deposited data

How the results depend on the processing

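The members' calls rest on few reads. With DESeq2 0 of the 8 tested members and 0 of the wider microglia list were called, and 448 genes overall (1048 in limma). It gave no adjusted p to Ctss, C1qa, C1qb, Tyrobp, C1qc, Cx3cr1, Spi1 and Runx1, so it could not call them. The cause of the other differences in calls was not tested. Leaving out 1 library gave 0 to 1 called members, 0 to 1 called genes of the wider list and 747 to 1745 genes overall. Replicate numbers 1 and 2 occur in both groups, but nothing in the labels says that they pair cultures, and the correlation of same-numbered deviations was 0.0429. With the replicate block 1 member, 2 genes of the wider list (Runx1 and Spi1) and 1626 genes overall were called, and edgeR with the block called 1 member, 1 gene of the wider list (Runx1, with Spi1 not called at adjusted p 0.0575) and 1385 genes. The ratio of summed member levels, 1.07, was 0.995 as a geometric mean, 0.945 without Laptm5 and 1.13 without Cd68, the last 2 settings chosen after seeing the data; without 1 library it was 1.06 to 1.09. Over single libraries left out, the log2 fold change ran from −0.321 to 0.0771 for Cd68 (0.0771 without DcpS shRNA 2), from −0.0852 to 0.142 for C1qb (−0.0852 without DcpS shRNA 2) and from −0.497 to 0.00888 for C1qc (0.00888 without DcpS shRNA 1), with no call. Pseudocounts of 0.5 and 4, no filter, TMM, library-total scaling and edgeR, also with the block, left Laptm5 called.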
